A study of Homo sapiens with 3 samples.

Results

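The 9 genes described here encode Golgi enzymes that add a sugar to proteins or lipids: 6 members of the GALNT family (GALNT1, GALNT2, GALNT3, GALNT7, GALNT10 and GALNT11) and 3 beta-1,4-galactosyltransferases (B4GALT1, B4GALT5 and B4GALT6). They are 9 of 23284 genes in the deposited gene table. The genes were chosen by their listed names, after the FPKM values of GALNT7 and B4GALT6 in these libraries had been seen, so their levels and ratios are a description and carry no test. FPKM is the number of sequenced fragments scaled to transcript length and library size. It allows only a rough comparison of levels between genes. Comparison between these libraries is also limited, since their ratios still moved with the GC content of the transcript.

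The libraries came from HEK293T, an established human embryonic kidney cell line, 48 h after seeding onto an siRNA and a lipid reagent, with no TGF-beta given to any group. Polyadenylated RNA was read on an Ion semiconductor sequencer. A non-targeting negative control siRNA, an siRNA against ESRP2 (an epithelial splicing regulator) and an siRNA against Arkadia (a ubiquitin ligase encoded by RNF111) gave 1 library each. The comparison addresses how transcript levels differ after an siRNA against either target. With 1 library per siRNA every difference is between 2 libraries, and less RNA per cell cannot be told apart from fewer cells that express a gene.

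The lowest FPKM values fall on steps of 1 read, which implied about 11.7 M reads in the control library, 12.2 M in the ESRP2 siRNA library and 8.8 M in the Arkadia siRNA library. Each siRNA target was lowest in its own library: RNF111 was 6.38, 7.65 and 1.15 FPKM with control, ESRP2 and Arkadia siRNA, and ESRP2 was 14.8, 4.27 and 21.2 FPKM, where the authors' intervals for control and ESRP2 siRNA overlapped. Of 8 genes usually expressed in HEK293 cells 7 had at least 1 FPKM in all 3 libraries, and of 20 markers of blood, endothelium, fibroblast, liver, muscle, gut or adult kidney 18 stayed below 1 FPKM in all of them.

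GALNT enzymes start mucin-type O-glycosylation: in the Golgi they attach N-acetylgalactosamine to serine or threonine, and other enzymes then extend this first sugar. Family members differ in the peptides they accept. GALNT1, GALNT2, GALNT3 and GALNT11 can act on unmodified peptides, whereas GALNT7 and GALNT10 prefer peptides that already carry the sugar. B4GALT1 adds galactose to glycoproteins, and B4GALT5 and B4GALT6 add galactose to glucosylceramide, which makes lactosylceramide, the precursor of gangliosides and most other complex glycosphingolipids.

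Several of these transcripts differed in level between the 3 libraries. GALNT7 was higher with both siRNAs than with control siRNA, and B4GALT6 was lower with both. GALNT1 was higher with ESRP2 siRNA and lower with Arkadia siRNA, so that GALNT2 alone led with Arkadia siRNA. GALNT3 was higher with ESRP2 siRNA, from a low level. The higher values of GALNT1 and GALNT3 with ESRP2 siRNA fell short of 1.5-fold once the trend of the ratios with transcript GC content was subtracted (log2 ratios of 0.15 and 0.46). GALNT10 and B4GALT1 had almost the same FPKM in all 3 libraries.

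**Figure D1:**
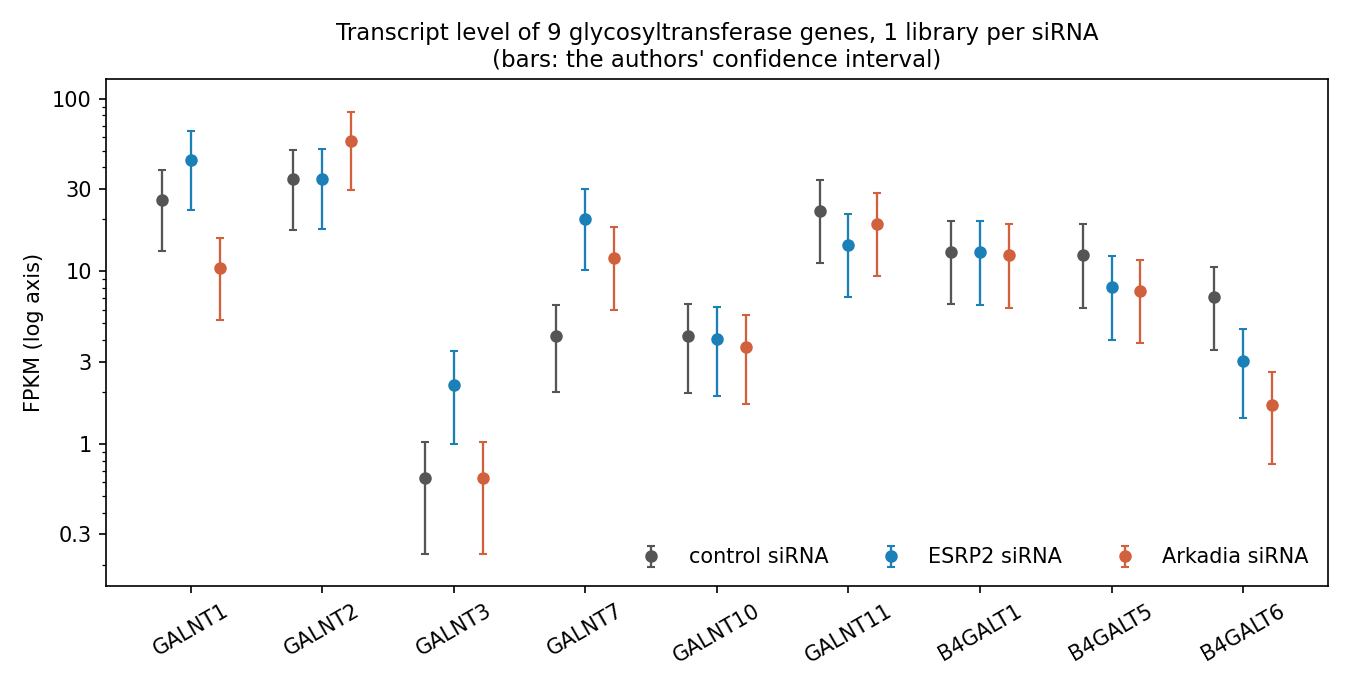
FPKM (log axis) of the 9 genes after control, ESRP2 and Arkadia siRNA, 1 library each; bars are the authors' confidence intervals. GALNT7 is lowest with control siRNA (4.2) and B4GALT6 highest there (7.07), while B4GALT1 stays between 12.4 and 13.

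GALNT7 (NM_017423; chromosome 4, 174089904 to 174245118 on hg19) had 4.2 FPKM with control siRNA, 20.1 with ESRP2 siRNA and 12 with Arkadia siRNA. The authors' intervals were 2.01 to 6.41, 10.2 to 30.1 and 5.94 to 18.1, and about 211, 1055 and 455 reads stood behind the values. The control library was the lowest of the 3; its interval was apart from that of the ESRP2 siRNA library and overlapped narrowly with that of the Arkadia siRNA library. GALNT7 was 4.8-fold higher with ESRP2 siRNA and 2.86-fold higher with Arkadia siRNA, or 2.02 and 1.32 as log2 ratios of FPKM + 1, the scale used for all log2 ratios here.

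Its relative GALNT10 (NM_198321; chromosome 5, 153570295 to 153825382), the other enzyme that prefers glycopeptides, was at 4.21, 4.04 and 3.66 FPKM with control, ESRP2 and Arkadia siRNA. The intervals overlapped almost fully, and the lowest bound was 1.7 and the highest 6.44. GALNT7 and GALNT10 thus stood at the same level with control siRNA and apart in both knockdown libraries, where the GALNT7 interval began above the end of that of GALNT10, at 6.18 with ESRP2 siRNA and 5.62 with Arkadia siRNA.

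GALNT1 (NM_020474; chromosome 18, 33234533 to 33291798), a broadly expressed initiating enzyme, had 25.9 FPKM with control siRNA (interval 13.1 to 38.6), 44 with ESRP2 siRNA (22.8 to 65.2) and 10.5 with Arkadia siRNA (5.2 to 15.7). The order was ESRP2, control, Arkadia, and the intervals of the outer pair did not overlap, while each overlapped with that of the control. Against control the log2 ratio was 0.74 with ESRP2 siRNA and -1.23 with Arkadia siRNA. Between the 2 knockdown libraries GALNT1 was 4.2-fold lower with Arkadia siRNA, a log2 ratio of -1.97.

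GALNT2 (NM_004481; chromosome 1, 230202956 to 230417875), an initiating enzyme known for glycosylating regulators of blood lipids, had 34.1, 34.5 and 56.9 FPKM with control, ESRP2 and Arkadia siRNA. It was the highest of the 9 genes with control and Arkadia siRNA. The 1.67-fold higher value with Arkadia siRNA had an interval of 29.8 to 83.9, which overlapped with 17.4 to 50.7 in the control.

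GALNT11 (NM_022087; chromosome 7, 151722778 to 151819427), known for modifying Notch and LDL receptor family proteins, had 22.5, 14.3 and 18.9 FPKM with control, ESRP2 and Arkadia siRNA. It was 1.58-fold lower with ESRP2 siRNA and 1.2-fold lower with Arkadia siRNA, with overlapping intervals. GALNT3 (NM_004482; chromosome 2, 166604313 to 166650803), which protects the phosphate hormone FGF23 from cleavage, was the lowest of the 9 in all libraries, at 0.631, 2.21 and 0.636 FPKM. About 24, 87.8 and 18.3 reads stood behind these values, and the interval with ESRP2 siRNA (1 to 3.44) overlapped narrowly with that of the control (0.231 to 1.03).

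The authors' intervals give each library's order only loosely. With control siRNA every pair of neighbours in the order of levels had overlapping intervals except GALNT7 and GALNT3 at the low end. With ESRP2 siRNA the order began with GALNT1, GALNT2 and GALNT7, and all neighbours overlapped. With Arkadia siRNA GALNT2 stood apart from the next gene, GALNT11, and all later neighbours overlapped.

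Summed over the 20 GALNT-family genes in the table, FPKM was 131 with control siRNA, 156 with ESRP2 siRNA and 141 with Arkadia siRNA. The totals were thus closer to each other than their make-up. GALNT7 made up 3.21%, 12.9% and 8.49% of the sum with control, ESRP2 and Arkadia siRNA. GALNT1 made up 19.7%, 28.2% and 7.41%, and GALNT2 26%, 22.1% and 40.3%. Together GALNT1 and GALNT2 held 45.8%, 50.2% and 47.7%, a narrow range, while the ratio of GALNT1 to GALNT2 went from 0.758 with control siRNA to 1.28 with ESRP2 siRNA and 0.184 with Arkadia siRNA. These shares and ratios still hold the trend with GC content, which is 36.3% for GALNT1 and 55.7% for GALNT2. After its subtraction the log2 ratios to control were 0.15 for GALNT1 and 0.25 for GALNT2 with ESRP2 siRNA. With Arkadia siRNA they were -0.77 and 0.47.

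**Figure D2:**
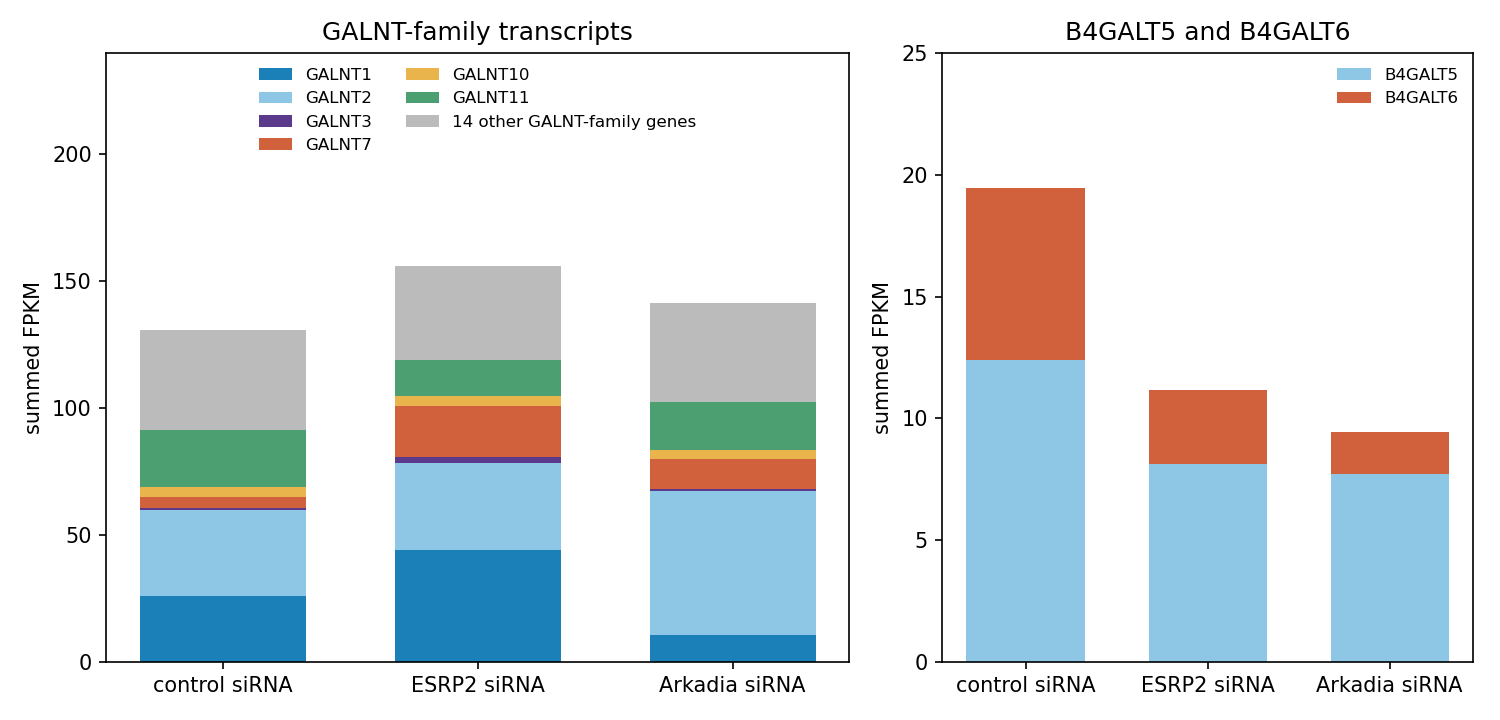
Summed FPKM of the GALNT family (left, the 6 genes described and 14 others) and of B4GALT5 and B4GALT6 (right) after control, ESRP2 and Arkadia siRNA, 1 library each. The GALNT7 segment is smallest with control siRNA (3.21% of the sum), and the B4GALT6 part of the right-hand bars is 36.3%, 27.1% and 17.9%. The bars are not adjusted for GC content.

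B4GALT6 (NM_004775; chromosome 18, 29202209 to 29264686) had 7.07 FPKM with control siRNA (interval 3.5 to 10.6), 3.02 with ESRP2 siRNA (1.41 to 4.62) and 1.69 with Arkadia siRNA (0.767 to 2.61), from about 397, 177 and 71.7 reads. The control library was the highest. Its interval was apart from that of the Arkadia siRNA library and overlapped with that of the ESRP2 siRNA library. B4GALT6 was 2.34-fold lower with ESRP2 siRNA and 4.18-fold lower with Arkadia siRNA, with log2 ratios of -1.01 and -1.59.

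B4GALT5 (NM_004776; chromosome 20, 48249483 to 48330421), the other lactosylceramide synthase, had 12.4, 8.13 and 7.73 FPKM with control, ESRP2 and Arkadia siRNA. Control was again the highest, by 1.53-fold and 1.6-fold, and all 3 intervals overlapped. The pair summed to 19.5, 11.2 and 9.43 FPKM, and the share of B4GALT6 in it went from 36.3% to 27.1% and 17.9%. B4GALT1 (NM_001497; chromosome 9, 33110639 to 33167356) had 13, 13 and 12.4 FPKM.

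B4GALT5 and B4GALT6 are close paralogs, so it matters whether their reads can be told apart. Over 1149 aligned coding bases of the GENCODE 29 transcripts they were 70.2% identical, and the longest identical run in the alignment was 15 bases. The 90-base window of highest identity, within the catalytic region, is shown because it is where reads of the pair are most alike; its 11 differing bases are in capitals. It runs from coding base 833 to 922 of B4GALT5 and 815 to 904 of B4GALT6, counted from the A of the start codon.
B4GALT5: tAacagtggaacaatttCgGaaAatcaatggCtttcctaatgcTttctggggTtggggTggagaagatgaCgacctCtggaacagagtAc
B4GALT6: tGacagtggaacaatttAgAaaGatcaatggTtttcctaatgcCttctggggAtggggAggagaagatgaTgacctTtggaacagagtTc

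No 50-base stretch of GALNT1, GALNT3, GALNT10 or B4GALT6 occurred in a transcript of another gene on either strand. For GALNT7 9.37% of such stretches did, for GALNT2 21.2%, for GALNT11 4% and for B4GALT1 0.578%, in each case in genes annotated as antisense. B4GALT5 shared 0.321% with EXOSC2 and HKR1. The use of strand in the authors' counting is not given in the sources used here, so reads of these antisense genes cannot be told apart from those of GALNT7, GALNT2, GALNT11 and B4GALT1.

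Among 11870 genes with a mean of at least 1 FPKM, usable status and a transcript of at least 300 nt, all 9 of the genes described were included. A gene is counted as higher or lower when FPKM + 1 differed by at least 1.5-fold. With ESRP2 siRNA against control, 3 of the 9 were higher (GALNT7, GALNT3, GALNT1), where 19.9% of all genes were, and 2 were lower (B4GALT6, GALNT11), where 11.4% were. With Arkadia siRNA 2 were higher (GALNT7, GALNT2), where 9.81% of all genes were, and 3 were lower (B4GALT6, GALNT1, B4GALT5), where 11.8% were. Between Arkadia and ESRP2 siRNA 1 was higher (GALNT2; 21.2% of all genes) and 3 were lower (GALNT1, GALNT3, GALNT7; 30.8%).

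Intervals that did not overlap were rarer. Against control they were apart for GALNT7 with ESRP2 siRNA, as for 0.868% of all genes in the higher direction, and for no lower member, where 0.413% of all genes were. With Arkadia siRNA they were apart for B4GALT6, as for 0.244% in the lower direction, and for no higher member, where 0.194% were. Between the knockdown libraries they were apart for GALNT1, as for 4.47% of genes lower with Arkadia siRNA, and for no higher member, where 1.90% were. Since these values chose the genes, nothing is read from the counts. The median log2 ratio of the 9 genes was -0.01, -0.16 and -0.11 in the 3 comparisons in this order, beside 0.12, -0.02 and -0.14 for all genes.

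Ratios to control moved with the GC content of the transcript, in opposite directions for the 2 siRNAs. In the lowest decile of GC content, with a median of 37.5%, the median log2 ratio was 0.60 with ESRP2 siRNA and -0.46 with Arkadia siRNA, and in the highest decile, with a median of 64.4%, it was -0.49 and 0.34. GALNT1, B4GALT6 and GALNT7 are in the lowest decile, at 36.3%, 36.6% and 38.8%, and GALNT3 at 40.8% is in the next.

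GALNT7 stood above the trend in both comparisons. Of the 1176 genes in its GC decile 3 had a higher ratio with ESRP2 siRNA and 0 with Arkadia siRNA, and after subtraction of the decile median its log2 ratio was 1.42 and 1.78. B4GALT6 stood below the trend in both: 2 of the 1176 genes were lower in each comparison, and the subtracted ratios were -1.61 and -1.12. The values of GALNT7 and B4GALT6 were seen before the genes were chosen, so their ranks are a description. Both comparisons also share 1 control library. GALNT1 with ESRP2 siRNA lay near the middle of its decile, with 433 genes above it, and its ratio went from 0.74 to 0.15. With Arkadia siRNA 17 genes of the decile were below GALNT1, and its ratio went from -1.23 to -0.77.

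GALNT3 with ESRP2 siRNA went from 0.98 to 0.46 on subtraction. GALNT11 and B4GALT5, both at 48% GC, were below their decile's median with ESRP2 siRNA, with subtracted ratios of -0.82 and -0.75. GALNT2, at 55.7%, went from 0.72 to 0.47 with Arkadia siRNA. Between the knockdown libraries the lower GALNT7 value with Arkadia siRNA, -0.70, became 0.37, that of B4GALT6, -0.58, became 0.49, and that of GALNT1, -1.97, became -0.90.

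**Figure D3:**
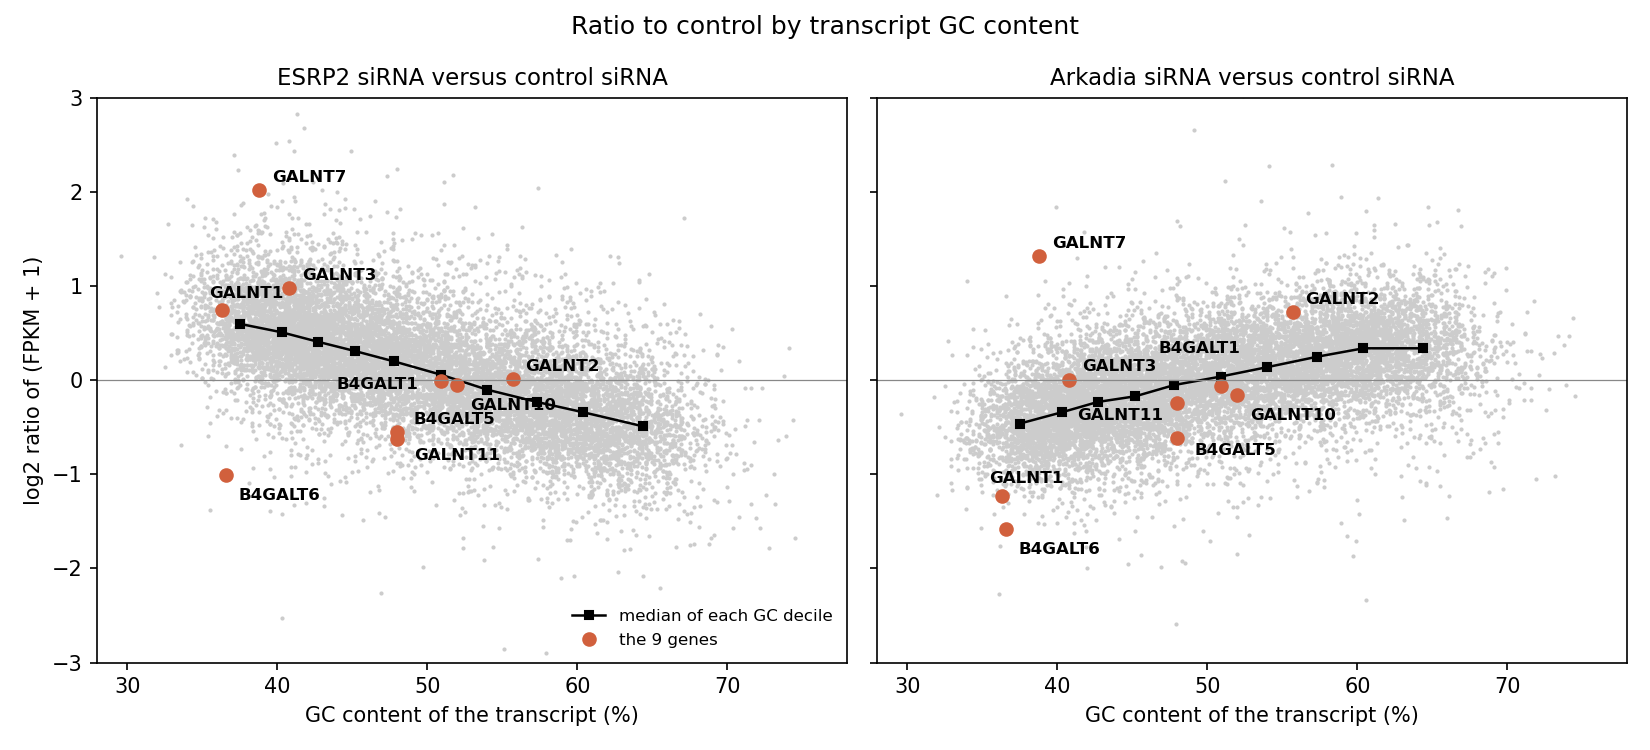
Log2 ratio of FPKM + 1 against control (y axis) by GC content of the transcript in percent (x axis) for ESRP2 siRNA (left) and Arkadia siRNA (right); grey points are genes, black squares the median of each GC decile, orange points the 9 genes, and 3 and 2 genes lie beyond a log2 ratio of 3 in either direction. GALNT7 lies far above the black line and B4GALT6 far below it in both panels, whereas GALNT1 is close to it with ESRP2 siRNA. Both panels share the same control library.

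A sequence feature, chosen with earlier results of these data known, was looked for in the 3' untranslated regions. GALNT7 is a known target of the miR-30 family, microRNAs that repress transcripts through pairing of their seed. A site in GALNT7 was therefore to be foreseen, and the counts of sites are a description. The seed (bases 2 to 8) is in capitals in miR-30a-5p, which lies at chr6:71403595-71403616 on the minus strand of GRCh38.p14, from RefSeq.
hsa-miR-30a-5p: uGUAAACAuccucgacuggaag

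The 7 bases that pair with this seed are TGTTTAC, searched on the transcript strand. They occurred in 7 of the 9 genes, at 9 places in all. GALNT7 and B4GALT6, the gene higher with both siRNAs and the gene lower with both, had 2 each, and GALNT11 and B4GALT5 had none. Among 6086 genes whose 3' untranslated region was as long as those of the 9 genes (670 to 4012 nt), 19.5% had at least 1 and 2.73% at least 2; over all 11264 genes with such a region the shares were 16.6% and 3.12%. The median region was 2445 nt in the 9 genes and 1608 nt in the genes of that range, so the 9 genes offered more bases. The sites of the genes that differed most between libraries are shown with the paired bases in capitals; positions count from the first base after the stop codon in GENCODE 29, at 185 and 221 in GALNT7, 129 and 1720 in B4GALT6, 228 in GALNT1 and 241 in GALNT3.
GALNT7 first site: gcagttacTGTTTACaagactgc
GALNT7 second site: tttgtagaTGTTTACatcttttt
B4GALT6 first site: gtccacagTGTTTACagagtggg
B4GALT6 second site: tcaaggatTGTTTACctaaaaca
GALNT1 site: cacactgaTGTTTACaagattga
GALNT3 site: ggaagagaTGTTTACagtatgat

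The same letters were thus present in genes that were higher, lower or both across the libraries. GALNT10 and B4GALT1, with almost the same FPKM in all 3 libraries, also had 1 site each, as did GALNT2. A match describes the sequence only, and the part of microRNAs in these values was not tested. The GENCODE transcript of B4GALT6 has 3891 nt, shorter than the 4814 nt of the authors' isoform, and that of GALNT3 has 3868 nt against 3267 nt, so sites in the stretches that differ may be missed or added.

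The rest of the pathway was described with 6 gene lists, counted at 1.5-fold. At this size 19.9% of all genes were higher and 11.4% lower with ESRP2 siRNA, and 9.81% higher and 11.8% lower with Arkadia siRNA, with medians of 0.12 and -0.02; the counts below are to be read beside these shares. Of the other GALNT-family genes 7 of 14 in the table passed the filter. With ESRP2 siRNA 1 was higher (GALNT4, 1.9 against 0.752 FPKM) and 1 lower (GALNTL1, 4 against 7.15). With Arkadia siRNA 0 were higher and 1 lower (GALNT13, 3.46 against 6.67), and GALNT12 and GALNT6 stayed within 4.64 to 4.94 and 3.62 to 3.73 FPKM over all 3 libraries. All these intervals overlapped, and after GC subtraction the log2 ratios of GALNT4, GALNTL1 and GALNT13 were 0.21, -0.47 and -0.44, short of 1.5-fold.

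Of the other beta-1,4-galactosyltransferases, 3 passed the filter. B4GALT4 had 4.09, 8.35 and 9.72 FPKM with control, ESRP2 and Arkadia siRNA, higher in both knockdown libraries, with overlapping intervals. B4GALT7, which acts in the linker of proteoglycans, had 18.8, 11.5 and 34.3 FPKM, and its transcript has a GC content of 62.2%. After GC subtraction the log2 ratios with ESRP2 and Arkadia siRNA were 0.57 and 1.25 for B4GALT4 and -0.17 and 0.50 for B4GALT7, so that B4GALT4 with Arkadia siRNA alone of these 4 stayed past 1.5-fold. Against control, 1 of the 3 was higher and 1 lower with ESRP2 siRNA, and 2 were higher and 0 lower with Arkadia siRNA.

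Next to lactosylceramide, the enzyme before B4GALT5 and B4GALT6 in the pathway, the glucosylceramide synthase UGCG, had 10.6 FPKM with control siRNA, 5.68 with ESRP2 siRNA and 3.73 with Arkadia siRNA. Like B4GALT6 it was lower in both knockdown libraries, with log2 ratios of -0.80 and -1.29 (-1.31 and -0.95 after GC subtraction) and with overlapping intervals. ST3GAL5, which adds sialic acid to lactosylceramide, had 9.26 FPKM with ESRP2 siRNA against 4.9 with control siRNA, a log2 ratio of 0.80 that became 0.49. Of 16 genes of glycosphingolipid metabolism that passed the filter, 3 were higher and 1 lower with ESRP2 siRNA (higher: GLTP, ST3GAL5 and GALC), and 3 higher and 1 lower with Arkadia siRNA (higher ones included GLA and A4GALT), with a median of 0.06 and 0.01.

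The list of O-glycan core and extension was not limited to enzymes that act on the sugar placed by the GALNT family. Of its 16 genes that passed the filter, 2 were higher and 1 lower with ESRP2 siRNA. The higher ones were C1GALT1C1 (54.4 against 33.3 FPKM) and B3GNT2 (9.47 against 5.52), and the lower one was ST6GALNAC6 (29.1 against 48.6). On GC subtraction these 3 fell short of 1.5-fold, at log2 ratios of 0.09, 0.17 and -0.39. With Arkadia siRNA 0 were higher and 3 lower. The core 1 synthase C1GALT1 was 1.61 FPKM against 3.85 with control siRNA, and B3GNT5 was 0.995 against 3.1. Both transcripts are low in GC (35.4% and 35.8%), and their log2 ratios of -0.90 and -1.04 became -0.44 and -0.58 on GC subtraction. The median of the list was 0.07 with ESRP2 siRNA and -0.21 with Arkadia siRNA, and 0.01 and -0.19 after GC subtraction.

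Among 19 genes of sugar nucleotide supply, 4 were higher and 0 lower with ESRP2 siRNA, and 3 higher and 4 lower with Arkadia siRNA. GFPT1, the first enzyme of hexosamine synthesis, had 16.8 against 7.95 FPKM with ESRP2 siRNA; its log2 ratio of 0.99 became 0.40 on GC subtraction, short of 1.5-fold. GALK1, galactokinase, had 69.4 against 21 FPKM with Arkadia siRNA, with intervals apart, and a log2 ratio of 1.68 that became 1.34. The list's medians were 0.17 and -0.03, and -0.01 and 0.07 after GC subtraction.

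Among 19 genes of Golgi retention and structure, 3 were higher and 0 lower with ESRP2 siRNA, and 0 higher and 2 lower with Arkadia siRNA. GOLPH3, a protein that holds glycosyltransferases in the Golgi, had 42.2 against 21.9 FPKM with ESRP2 siRNA. Its intervals overlapped, and its log2 ratio of 0.92 became 0.61 on GC subtraction. The related GOLPH3L had 5.6 against 19.4 FPKM with Arkadia siRNA, with intervals apart. The log2 ratio of GOLPH3L was -1.63, and -1.29 after GC subtraction. TMEM165, needed for Golgi manganese and thus for galactosylation, had 18.9 against 33.3 FPKM with Arkadia siRNA. Its intervals overlapped, and its log2 ratio of -0.79 became -0.61 on GC subtraction. The list's median was 0.38 with ESRP2 siRNA and -0.06 with Arkadia siRNA; after GC subtraction these were 0.08 and 0.11.

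**Figure D4:**
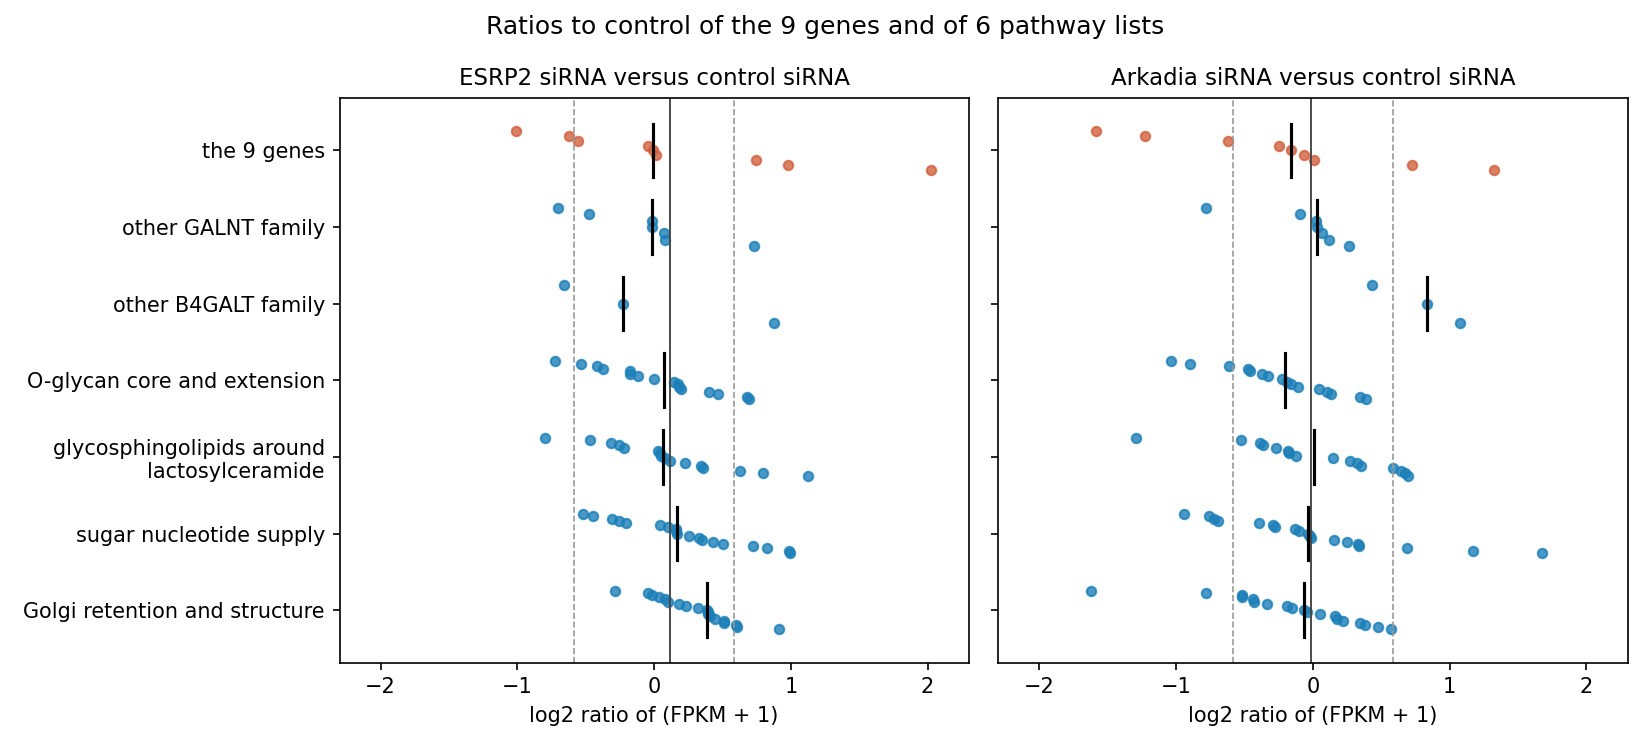
Log2 ratio of FPKM + 1 against control for the 9 genes (orange) and the genes of 6 pathway lists that passed the filter (blue); black ticks are list medians, the long line is the median of all genes and dashed lines mark 1.5-fold. The 9 genes span -1.01 to 2.02 with ESRP2 siRNA and -1.59 to 1.32 with Arkadia siRNA, around medians of -0.01 and -0.16.

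The genes most like GALNT7 and B4GALT6 were found by the distance between their pairs of log2 ratios against control, among 9281 genes with at least 5 FPKM in the highest of the 3 libraries. Nearest to GALNT7 were CAPZB, an actin-capping subunit with 172, 785 and 434 FPKM with control, ESRP2 and Arkadia siRNA, LIX1L (7.22, 35.9 and 17.5) and the lactate dehydrogenase subunit LDHB (451, 1694 and 965). Nearest to B4GALT6 were CLEC2L (10.3, 4.11 and 3.12 FPKM), KCTD12 (73.3, 33.6 and 28.3) and the ethanolamine kinase ETNK2 (23.2, 11.6 and 5.67). The likeness rests on 3 libraries that share 1 control, so these are equally genes in which the control library stood apart. The ratios compared also still hold the trend with GC content. CAPZB, LIX1L and LDHB have a GC content of 51.7%, 47.3% and 46.5%, against 38.8% for GALNT7. CLEC2L, KCTD12 and ETNK2 have 66%, 43.6% and 59.7%, against 36.6% for B4GALT6.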

How the data were processed

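Polyadenylated RNA of HEK293T cells was measured in 3 libraries, 1 per siRNA. The FPKM values and their confidence bounds, per gene and per isoform, were deposited by the authors. The submitters' processing notes name Cuffdiff, Cufflinks 2.1.1, TopHat2 2.0.10, Bowtie2 2.1.0 and the build hg19. How libraries were scaled and whether counting used strand is not given in the sources used here. Each of the 9 genes has 1 isoform in the isoform table. Positions are those of the deposited tables, counted from 1.

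Log2 ratios used FPKM + 1 (pandas 2.3.3), for 11870 of 23284 genes with mean FPKM of at least 1, status OK in each library and 300 nt or more in the longest isoform. With 1 library per group no test was made and no p-value is given. A read's worth was the median of FPKM times transcript length in kb over low single-isoform genes at the lowest step. Of 4813 such genes, 913, 895 and 954 were at that step with control, ESRP2 and Arkadia siRNA. Reads given are estimates, and errors from them cover counting only. GC content came from GENCODE 29 transcripts, matched for 99.1% of the filtered genes and used without coordinates. Coding sequences were aligned with Biopython 1.88. Ratio, counting rule and decile subtraction were tested on simulated data.

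All 9 genes are named, with up to 4 genes per list and comparison past 1.5-fold (some of these are not reported here), and the 3 genes nearest in pattern to GALNT7 and B4GALT6. GALNT6 and GALNT12 were named after their values were seen. The genes, lists, microRNA and sequence windows were chosen with earlier results of these data known. Alternatives were 2 other pseudocounts, no filter, 2 rescalings, GC and length subtraction, summed isoforms and a size of 2-fold.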

Additional observations from a re-analysis of the deposited data

How the results depend on the processing

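GALNT7 was higher than control with both siRNAs and B4GALT6 lower with both under every alternative run (other pseudocounts, no filter, rescaling, GC or length subtraction, summed isoforms). No filter and summed isoforms could not move a ratio, since all 9 genes passed the filter and each has 1 isoform. They give 27 each of the 216 ratios below, all counted among the 198. Of 216 recomputed ratios of the 9 genes, 198 moved by less than the spread implied by the authors' intervals, 17 moved by more (10 of them on GC subtraction) and 1 that had passed 1.5-fold changed sign: GALNT7 between Arkadia and ESRP2 siRNA, -0.70 as reported and 0.37 after GC subtraction. Among the 17, B4GALT6 in that comparison, just short of 1.5-fold at -0.58, also changed sign, to 0.49. With ESRP2 siRNA the 3 higher genes became 1 after GC subtraction and 1 at 2-fold, and the 2 lower became 1 with a pseudocount of 5 and 1 at 2-fold. With Arkadia siRNA the 2 higher became 1 after GC subtraction and 1 at 2-fold. Between Arkadia and ESRP2 siRNA the 1 higher became 0 at 2-fold, and the 3 lower became 1 with a pseudocount of 5, 1 after GC subtraction and 1 at 2-fold. The other counts stayed within 1.5 times. Rescaling by the median of ratios or the upper quartile moved the median log2 ratio of all genes with ESRP2 siRNA from 0.12 to 0.01 and -0.03, and that between Arkadia and ESRP2 siRNA from -0.14 to 0.00 and 0.01. Apart from what each alternative itself removes, the cause was not tested. A change of isoform usage could not be computed, since each gene has 1 isoform. No paired analysis was possible because each group has 1 library. Depth limits GALNT3 most: its 18.3 reads with Arkadia siRNA carry a counting error of 23.4%, against 2.12% to 11.8% for the other 8 genes over all libraries.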

Other observations

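B4GALT2, a further beta-1,4-galactosyltransferase, is listed at 0 FPKM with a failed status in the control and Arkadia siRNA libraries and at 33.3 FPKM in the ESRP2 siRNA library, so no ratio is given for it. GALNTL4 was the highest of the 14 other GALNT-family genes in all 3 libraries, at 11.8, 12.6 and 14.4 FPKM with control, ESRP2 and Arkadia siRNA. GALNT5, GALNT8, GALNT9, GALNTL2, GALNTL5, GALNTL6 and WBSCR17 stayed below 1 FPKM in all 3 libraries, and WBSCR17 was listed at 0 with control siRNA.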
